A study of Mus musculus with 8 samples.

Results

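The sharpest nucleosomes of wild-type (WT) mouse spermatocytes were examined across 8 deposited lists of protected positions. They were chosen by 2 measured values of the WT spermatocyte library: a sharp position was an autosomal position with a summit value not above 1048, which leaves out the highest 0.1% of that list, and a fuzziness score among the lowest 1% of the positions that remained, at or below 40.1. The summit value is the height of the fragment coverage at the centre of a position, and the fuzziness score is a deposited value whose formula is not given in the sources used here. By its name it is read here as the scatter of fragments around a position, with low scores called sharp. The rule selected 51727 of 5171708 positions under the height limit, out of 5309674 positions in the whole WT spermatocyte list and 37461253 in all 8 lists. All 51727 entered each description below, and the 5171708 positions under the height limit, sharp ones included, are called all positions. The rule used the fuzziness and height of the WT spermatocyte library, so every value from that library is a description only. At the threshold the last score inside was 40.06127 and the first outside was 40.06133.

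The libraries came from testis fractions enriched in 1 of 3 stages, spermatocytes, round spermatids or condensing spermatids, of WT mice and of mice lacking H2A.L.2. Chromatin was cut with micrococcal nuclease (MNase), which digests DNA that protein does not protect. At the condensing stage, nucleosome-like fragments (130 to 170 bp) and shorter ones, called small structures (40 to 80 bp), were isolated by electrophoresis and sequenced as separate libraries. No fragment range was given for the earlier stages, so differences between them and the condensing lists cannot be told apart from fragment selection. Each of the 8 groups was 1 library, merged from 3 sequencing runs, with 207000000 to 753000000 reads. The strain and age of the animals, the H2A.L.2 allele and the number of animals behind each library are not given in the sources used here. Position lists hold no expression values, so the labelled stages could not be checked against markers. With 1 library per group there was no replicate check and no test between libraries. The SDs printed are over 19 autosomes and describe variation along the genome, and the 95% Wilson intervals cover counting error only.

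A nucleosome is DNA wrapped around an octamer of histones, and in a population of cells its place on the DNA can be nearly fixed or can vary from cell to cell. A strongly positioned nucleosome often stands at the head of an ordered array, because neighbours pack against it at regular intervals. Spermatids exchange their histones for transition proteins and later for protamines, and H2A.L.2 is a histone variant of the testis that takes part in this exchange. Nucleosome positions of spermatocytes are therefore laid down before this replacement, and small structures are particles found during it.

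Sharp positions were not the tallest ones. Their median summit value was 224 (95% order-statistic interval 224 to 224), against 232 for all positions, and their range was 164 to 1048. A summit value at or below the 10% quantile of all positions, 176, was found at 14.0% of sharp and 10.2% of all positions. This excess was not at the lowest values. The class from 64 to 172 held 1.59% of sharp against 2.76% of all positions, or 5.73 sharp ones per 1000. Sharp positions were more frequent in the class from 176 to 188, with 11.9 per 1000. They were also frequent at the high end. The highest class of summit values, from 328 upwards, held 12.1% of sharp positions against 10.9% of all positions, while the class from 292 to 324 held 7.05% against 9.22%. The fuzziness of the sharp positions had a median of 38.4 and a lowest value of 27.5, against a median of 53.3 in all positions.

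Sharp positions stood apart from their neighbours and lay in windows with fewer called positions. Such counts do not measure nucleosome occupancy. The gap to the next summit, counted up to 1000 bp, had a median of 430 bp upstream (SD 13.1 bp over autosomes) and 420 bp downstream (SD 11.8 bp), against 250 bp on both sides for all positions (SD 10.97 bp). No summit was found within 1000 bp on either side of 8.69% of sharp positions, against 1.78% of all positions. A neighbour closer than 170 bp was present at 0.777% of sharp and 36.1% of all positions. The frequency of sharp positions rose steadily across classes of distance to the nearest summit. It was 0.0250 per 1000 positions where the nearest summit was under 150 bp away, 9.999 per 1000 from 200 to under 300 bp, and 48.5 per 1000 at 1000 bp or more. Over the same classes the median fuzziness of all positions went from 56.8 to 52.2 and 49.5, so the score of any position moved with the distance of its neighbours. Whether this follows from how the score is computed was not tested.

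The 100 kb window around a sharp position held a median of 187 positions (interval 186 to 188), against 248 for all positions. The 10 classes of window density ran in order. Windows with 4 to 136 positions had 23.4 sharp ones per 1000, windows with 225 to 247 had 8.92, and windows with 338 to 489 had 2.53. With windows in 5 classes, 41.4% of the sharp positions lay in the least dense class and 6.48% in the densest, against 19.8% and 20.2% of all positions. Among autosomes, chromosome 3 had the most sharp positions, 13.1 per 1000 (95% interval 12.7 to 13.5), and chromosome 11 the fewest, 7.57 (7.27 to 7.89). Taken over positions, the median number in the window of a position was 205 on chromosome 3 and 294 on chromosome 11. These chromosomes thus stood in the opposite order for density.

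**Figure D1:**
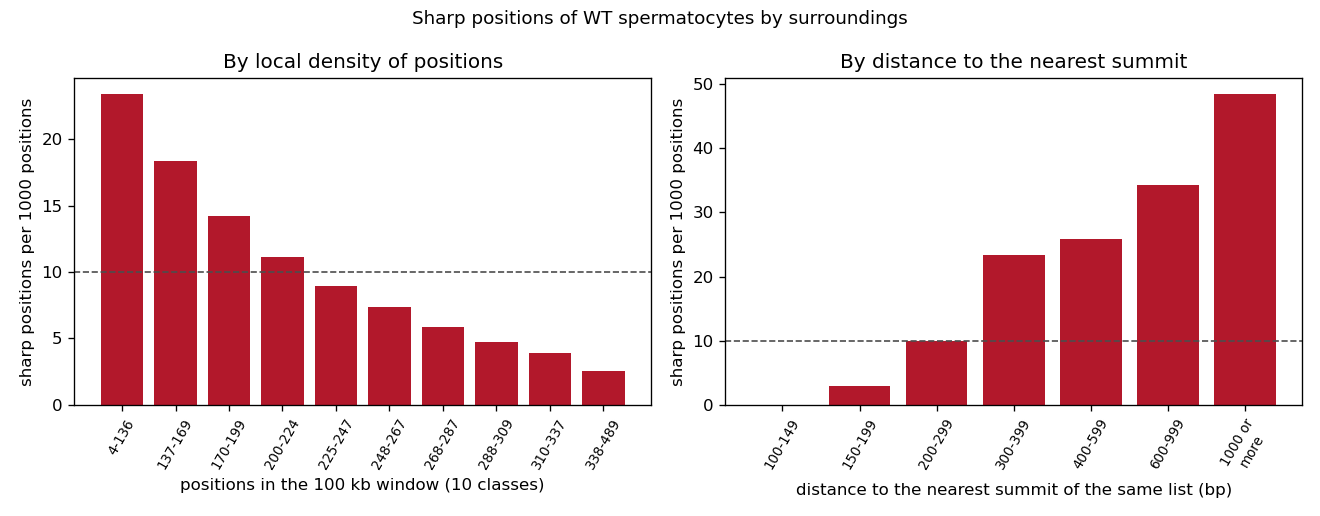
Sharp positions per 1000 positions of the WT spermatocyte list, in 10 classes of the number of positions in the 100 kb window (left) and 7 classes of the distance to the nearest summit in bp (right); the dashed line marks 10 per 1000, the frequency fixed by the rule. The bars go down from 23.4 to 2.53 with density and up from 0.0250 to 48.5 with distance.

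Sharp positions were spread over most of the genome, with the fullest windows on chromosome 13. Of 24017 autosomal windows of 100 kb with any position, 15.6% held no sharp one, the median window held 2, and 36 windows held 10 or more. The 3 windows with the most were on chromosome 13, from 66600001 to 66700000 (26 sharp of 117 positions), from 66000001 to 66100000 (19 of 191) and from 66400001 to 66500000 (18 of 117), in the mm9 build. Other full windows lay on chromosome 13 from 68400001 to 68500000 (15 of 166) and from 68500001 to 68600000 (14 of 134). Another lay on chromosome 6 from 130600001 to 130700000 (13 of 115). The stretch of chromosome 13 from 65 to 67 Mb held 205 sharp positions, 59.7 per 1000, against 10.2 per 1000 on the rest of that chromosome. Its median summit value was 304 at sharp and 288 at all positions. Of its sharp positions 60.5% had a WT condensing nucleosome within 40 bp, and of all its positions 49.2% did. This stretch held 0.396% of all sharp positions, and without it the genome-wide shares given below moved by less than their 95% intervals. The next sharp position lay within 1000 bp in 4.08% of cases. Neighbours within 1000 bp were themselves on the sharp side of the list, with a median fuzziness percentile of 26.7 upstream and 26.0 downstream, where 0 is the sharpest. The values for neighbours of all positions were 51.8 and 51.9. These values were not compared at equal distance between neighbours, with which the score also moved.

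Around sharp positions the summits of the library rose and fell with distance more strongly than around an average position. Summits were counted in 10 bp bins of distance and divided by the mean from 800 to 1000 bp, and peaks were read after smoothing over 5 bins. The second peak of this curve (highest value from 330 to 450 bp) was 2.62 times the trough before it (230 to 330 bp) around sharp positions, with an SD of 0.234 over autosomes, and 1.69 times (SD 0.0245) around all positions. These ratios were not compared at equal distance to the neighbours, and the cause of their difference was not tested. The peaks around sharp positions lay at 200, 370, 550 and 740 bp. Around all positions they lay at 180, 370, 560 and 740 bp. The first peak was low around sharp positions, 0.905 times the background against 1.51, and no summit lay within 90 bp in either set because the list holds none closer than 100 bp. Repeat lengths fitted through the first 4 peaks were 180 bp for sharp and 187 bp for all positions on the 10 bp grid, and the farther first peak lowers the fitted value.

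The same difference was read in libraries that had no part in the choice of positions. Centred on sharp WT spermatocyte positions, the second-peak ratio was 2.91 (SD 0.253) in H2A.L.2-less spermatocytes, 2.24 (SD 0.213) in WT round spermatids and 2.61 (SD 0.257) in H2A.L.2-less round spermatids. Centred on all positions it was 1.78 (SD 0.0281), 1.57 (SD 0.0195) and 1.68 (SD 0.0284) in the same order. In each of these 3 lists the ratio around sharp positions was higher by more than the SDs over autosomes. Close to the sharp summit the lists were nearly empty, with a density of 0.0344, 0.0386 and 0.0857 times the background at its lowest, 90 to 100 bp away. At the same distance from all positions the lowest values were 0.751, 0.802 and 0.783. The density at the summit itself was 6.67, 5.68 and 5.64 times the background around sharp positions, and 3.97, 3.65 and 3.29 times around all positions.

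In condensing nucleosomes the second peak was not found at 370 bp around sharp positions. The second-peak ratio was 1.12 (SD 0.0644) in WT and 1.13 (SD 0.0977) in the H2A.L.2-less library. It did not measure a peak at 370 bp, where the smoothed density was 0.894 and 0.910. The peak search gave 440 bp in both lists, the end of the range searched. Around all positions neither list rose from the trough range to the second-peak range. The curves had a minimum of 0.447 and 0.454 at 90 to 100 bp. The summit itself remained at 2.18 and 2.17 times the background. The values at the centre around all positions were 1.84 and 1.83, and those at 100 bp were 1.05 and 1.07, so a peak and a gap beside it remained around sharp positions.

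Small structures of condensing spermatids recurred around sharp positions too, but between the places of the former neighbours. In WT their density was 1.88 times the background at the sharp summit (1.67 at all positions), 1.09 at 290 bp and 0.786 at 370 bp, where spermatocyte nucleosomes had their second peak with 1.43. Further peaks of WT small structures lay at 470, 650 and 840 bp, 183 bp apart by the fitted line, and nucleosome peaks at 550 and 740 bp fell between them. H2A.L.2-less small structures had peaks at 280, 460, 650 and 840 bp, 187 bp apart. Their density was 1.14 at 280 bp and 0.818 at 370 bp. At the sharp summit itself it was 1.52, against 1.59 at all positions, so the order there was the opposite of that in WT. Around all positions the peaks of small structures lay within 10 bp of the same places, and the density at 370 bp was 0.948 in WT and 0.958 in the H2A.L.2-less list.

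**Figure D2:**
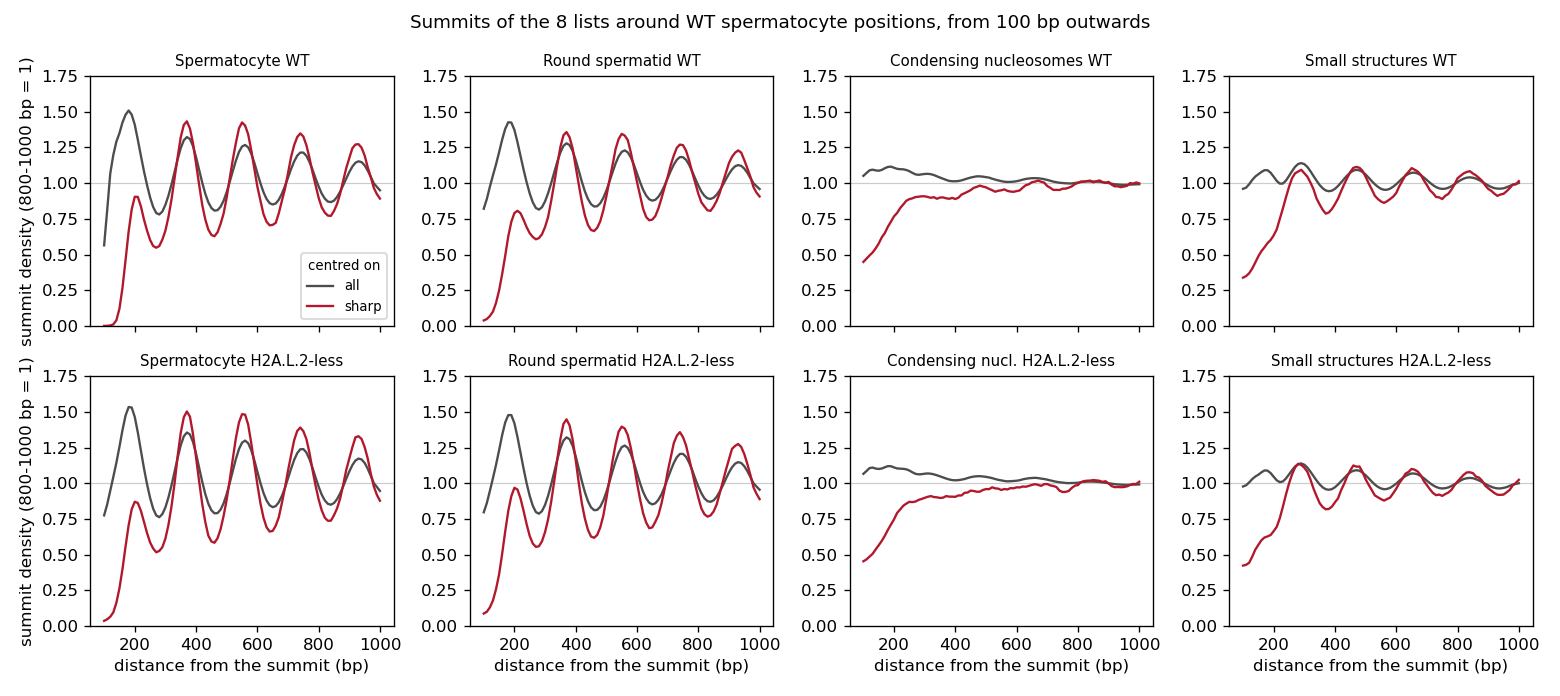
Density of summits in each of the 8 lists against distance in bp from sharp positions (red) and from all positions (grey) of WT spermatocytes, smoothed over 5 bins of 10 bp and divided by the mean from 800 to 1000 bp; top row WT, bottom row H2A.L.2-less. Nucleosome peaks at 370 bp are higher around sharp positions in the earlier stages, and small structures have a minimum there, 0.786 in WT.

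The next comparison asked how often a sharp position recurred, with a summit of the other list within 40 bp counted as a match. In H2A.L.2-less spermatocytes 25605 sharp positions were matched, 49.5% (95% interval 49.1 to 49.9, SD 1.25 points), against 51.5% of all positions (SD 0.579 points). In WT round spermatids 25087 were matched, 48.5% (SD 2.16 points), against 55.4% of all positions (SD 0.292 points). In H2A.L.2-less round spermatids the order was the opposite, with 26219 matched, 50.7% (SD 1.29 points), against 42.7% of all positions (SD 1.03 points). With equal numbers of positions taken from each list, the shares of sharp positions were 39.3%, 31.9% and 42.6% in this order, against 43.4%, 43.0% and 36.0% of all positions, so the near equality of the 3 shares depended on the lengths of the lists. The differences between sharp and all positions at 40 bp were larger than the SDs over autosomes. Within 20 bp, however, sharp positions were matched more often in H2A.L.2-less spermatocytes (41.1% against 36.1%) and WT round spermatids (39.8% against 38.2%), and within 73 bp less often in H2A.L.2-less round spermatids (53.5% against 55.8%).

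In condensing spermatids sharp positions as a whole were matched less often than all positions in each list. The share was 19.95% in WT nucleosomes (SD 2.27 points) against 25.0% of all positions, and 19.3% in H2A.L.2-less nucleosomes (SD 2.23 points) against 25.7%. Of the sharp positions 23.3% (SD 3.28 points) had a WT small structure within 40 bp, against 39.4% of all positions, and 15.3% (SD 2.34 points) had an H2A.L.2-less one, against 28.7%. These differences varied with window density. In the least dense of 5 classes of windows the shares were 14.8% against 20.9% for WT and 14.6% against 21.5% for H2A.L.2-less nucleosomes, and 9.82% against 22.2% and 6.62% against 14.7% for small structures. In the densest class they were 29.1% against 28.8%, 30.2% against 29.6%, 52.6% against 51.9% and 37.7% against 42.4%, so only the H2A.L.2-less small structures then had the lower share at sharp positions.

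The matches were closer in space than for other positions, and the misses more often had no called summit near. Among matched sharp positions, 24.2% were within 5 bp of the summit in H2A.L.2-less spermatocytes, 23.3% in WT round spermatids and 21.7% in H2A.L.2-less round spermatids, against 18.9%, 18.3% and 17.9% of all matched positions. Where a sharp position was not matched, the other list mostly held no summit nearby. A position missing from a list may be below its calling floor, so this does not show an empty site. No summit lay within 200 bp of 44.2% of sharp positions in H2A.L.2-less spermatocytes (SD 1.52 points), 45.2% in WT round spermatids (SD 2.28 points) and 39.8% in H2A.L.2-less round spermatids (SD 1.08 points). The shares of all positions were 15.3%, 10.8% and 20.8%. A summit between 41 and 200 bp away was found for only 6.34%, 6.33% and 9.50% of sharp positions in these 3 lists, against 33.2%, 33.8% and 36.5% of all positions. In the condensing lists, 62.5% of sharp positions had no WT nucleosome within 200 bp and 63.0% no H2A.L.2-less one, against 34.2% and 32.9% of all positions. No WT small structure lay that close to 65.2%, and no H2A.L.2-less one to 73.7%, against 22.2% and 34.4%. These shares were not taken at equal distance to the neighbours, and the contrast was smaller among isolated positions. With the nearest summit 1000 bp or more away, the shares in H2A.L.2-less spermatocytes were 53.3% of sharp and 34.4% of all positions. In WT condensing nucleosomes they were 79.0% and 65.8%. The shares also differed with summit value. In the lowest class of summit values, 68.5% of sharp and 26.4% of all positions had no H2A.L.2-less spermatocyte summit within 200 bp. In the highest class these shares were 11.6% and 3.05%.

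**Figure D3:**
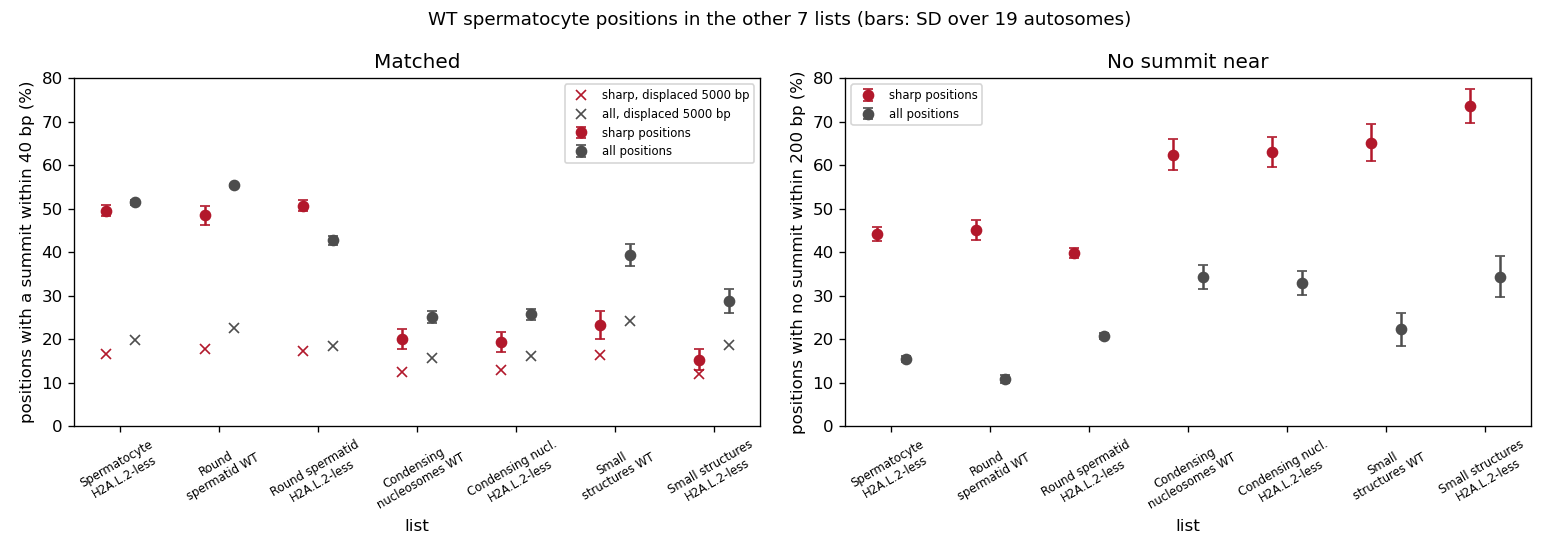
Share of sharp (red) and all (grey) WT spermatocyte positions with a summit within 40 bp (left, in percent) and with none within 200 bp (right, in percent) in the other 7 lists; points are shares, bars the SD over 19 autosomes, and crosses the share 5000 bp away. Only in H2A.L.2-less round spermatids do sharp positions stand above all positions at the left, and they stand above them in each list at the right.

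Since sharp positions lay in sparse windows, the shares were set beside those at displaced points and those of reweighted positions. At points displaced by 5000 bp from sharp positions, 16.5%, 17.8% and 17.2% had a summit within 40 bp in H2A.L.2-less spermatocytes, WT and H2A.L.2-less round spermatids, against 19.7%, 22.5% and 18.4% for all positions. Matches were thus 3.001, 2.72 and 2.94 times as frequent as at displaced points for sharp positions and 2.61, 2.47 and 2.32 times for all positions. In condensing spermatids these ratios were 1.59 and 1.51 for WT and H2A.L.2-less nucleosomes, and 1.43 and 1.28 for small structures. All positions gave 1.60, 1.59, 1.63 and 1.53, so relative to displaced points the sharp positions were not ahead there.

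All positions were also reweighted to the summit values and window densities of the sharp ones. This gave 51.5% in H2A.L.2-less spermatocytes, 54.1% in WT round spermatids and 44.8% in H2A.L.2-less round spermatids, so the order against the sharp positions was as without reweighting. For condensing nucleosomes of WT and H2A.L.2-less mice it gave 23.2% and 23.8%, and for small structures 32.3% and 22.5%. Reweighting to the distance of the nearest summit gave 50.3%, 54.1% and 43.1% in the 3 earlier lists, 22.3% and 22.5% in condensing nucleosomes and 34.1% and 24.0% in small structures. The sharp positions remained below these values in 6 lists and above them in H2A.L.2-less round spermatids.

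The height of a sharp position went with its chance of recurring more steeply than for other positions. In the class of summit values from 176 to 188, 29.5% of sharp positions were matched in H2A.L.2-less spermatocytes and 26.7% in WT round spermatids, against 35.6% and 40.5% of all positions. In the class from 328 upwards the order was reversed, with 84.6% and 86.2% of sharp against 75.3% and 75.8% of all positions. In H2A.L.2-less round spermatids the sharp positions were above all positions in both classes, at 38.1% against 31.9% and at 76.7% against 62.9%. For WT small structures the shares were 15.7% against 34.5% in the low class and 40.1% against 44.1% in the high class. Low sharp positions were thus matched less often than low positions in general in 3 of these 4 lists. Of the high sharp positions, 9.80% had no WT round spermatid summit within 200 bp, against 1.79% of all positions in that class.

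**Figure D4:**
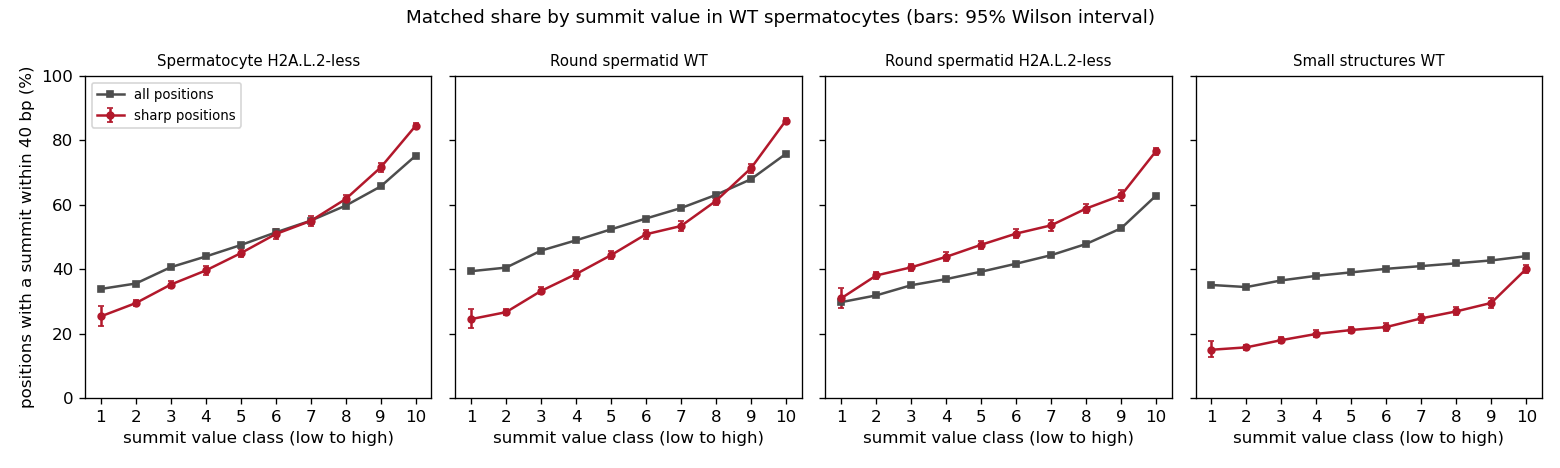
Share of positions with a summit within 40 bp, in percent, for 10 classes of the WT spermatocyte summit value from low to high, in 4 lists; red points are sharp positions with 95% Wilson intervals and grey squares all positions. The curves cross in H2A.L.2-less spermatocytes and WT round spermatids, where the top class reaches 84.6% and 86.2%.

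Window density separated the 2 round spermatid lists. In the least dense of 5 classes of windows, 42.2% of sharp positions were matched in WT round spermatids against 53.8% of all positions, and 53.4% in H2A.L.2-less round spermatids against 48.5%. In the densest class, 62.6% were matched in WT against 57.3% of all positions, and 46.9% in the H2A.L.2-less list against 38.9%. Sharp positions were therefore above all positions in H2A.L.2-less round spermatids at both ends, and changed sides in WT. The 100 kb windows of sharp positions held a median of 188 WT and 189 H2A.L.2-less round spermatid positions, although the H2A.L.2-less list was shorter, 4700815 autosomal positions against 5322422. Of the sharp positions 21.4% were matched in H2A.L.2-less but not in WT round spermatids, against 14.5% of all positions, and 19.2% only in the WT list of the pair, against 27.1%. The first set had a median summit value of 0.897 times the list's median and lay in windows with 168 positions, and the second had the list's median summit value and windows with 206 positions.

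Where a sharp position recurred, its partner ranked low in fuzziness in the other library, although most partners were outside the lowest 1% of their list. The fuzziness of each matched position was ranked within its own list, from 0 for the sharpest to 100, which sets aside differences between lists in the level of the score. At positions matched to sharp ones the median percentile was 4.87 (95% interval 4.73 to 5.01) in H2A.L.2-less spermatocytes, 4.46 (4.35 to 4.59) in WT round spermatids and 9.60 (9.39 to 9.85) in H2A.L.2-less round spermatids. For all matched positions it was 45.6, 45.2 and 47.3, and 66.6%, 69.1% and 51.0% of the partners of sharp positions were in the lowest 10% of their lists. In the lowest 1% were 20.6%, 21.2% and 12.1% of them. Only 3.35%, 3.25% and 8.52% of them were in the fuzzier part above the 50th percentile. The SDs of the medians over autosomes were 0.416, 0.363 and 0.624 percentile points.

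In condensing spermatids the ranks were less extreme, with medians below those of all matched positions. The median percentile was 22.3 (21.5 to 23.0) in WT and 21.2 (20.3 to 21.9) in H2A.L.2-less nucleosomes, against 50.3 and 50.4 for all matched positions. At small structures it was 15.2 (14.5 to 15.6) for WT and 22.9 (21.9 to 23.9) for H2A.L.2-less ones, against 48.3 and 48.5. In fuzziness scores, sharp positions with a median of 38.4 had partners with medians of 44.8, 44.2 and 46.5 in the 3 earlier lists and of 51.5 and 51.4 in condensing nucleosomes, so partners were fuzzier than the selected positions throughout the nucleosome lists. Sharp positions were selected on their score in 1 library, and the part that this selection has in the higher scores of the other libraries was not tested.

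In H2A.L.2-less spermatocytes and WT round spermatids the low ranks were also seen at equal distance to the neighbours. Among positions with the nearest summit 1000 bp or more away, the median percentile at matches was 4.47 for sharp and 24.7 for all positions in H2A.L.2-less spermatocytes, and 2.81 and 21.4 in WT round spermatids. Among those with a summit 200 to under 300 bp away it was 5.60 and 42.2, and 5.61 and 41.2. Sharp positions had the lower median in both distance classes of these lists. The difference was small for H2A.L.2-less small structures where the nearest summit was 150 to under 200 bp away, 48.2 against 53.2.

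**Figure D5:**
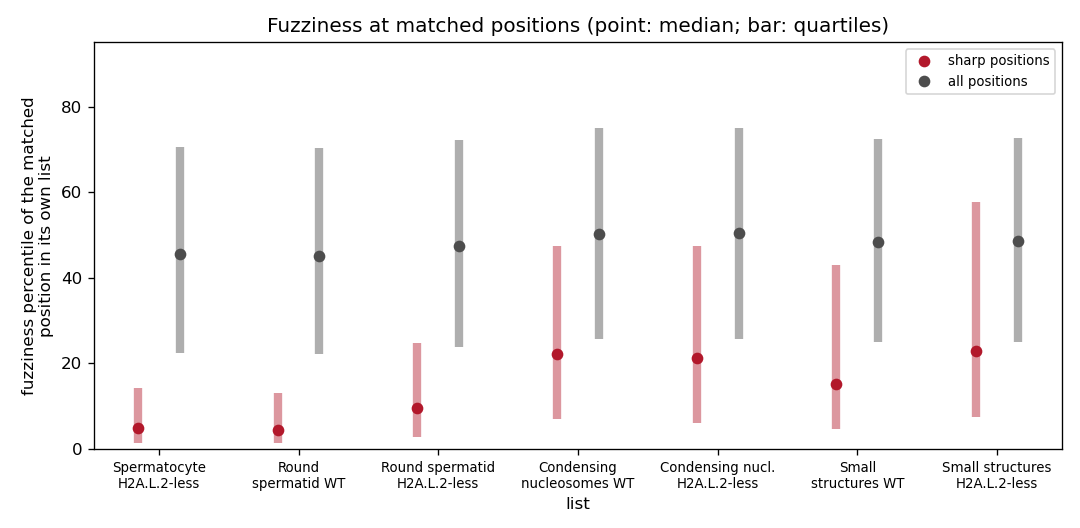
Fuzziness percentile of matched positions within their own list (0 is the sharpest) for sharp (red) and all (grey) WT spermatocyte positions in the other 7 lists; points are medians and bars span the quartiles. Medians for sharp positions are between 4.46 and 22.9, and those for all positions between 45.2 and 50.4.

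By the same rule applied to each list, some positions were sharp in 2 libraries. A sharp H2A.L.2-less spermatocyte position lay within 40 bp of 5310 sharp WT spermatocyte positions, 10.3% of them and 11.2% of the H2A.L.2-less sharp set. The share among all WT spermatocyte positions was 0.522%. In WT round spermatids 5336 were sharp as well, 10.3% of the WT spermatocyte set and 10.04% of the round spermatid set, against 0.555% of all positions. H2A.L.2-less round spermatids shared 3175, 6.14% and 6.76%, against 0.346%. The overlap was smaller at the condensing stage. It was 1.47% for WT and 1.56% for H2A.L.2-less nucleosomes, 1.64% for WT and 0.642% for H2A.L.2-less small structures, against 0.210%, 0.213%, 0.270% and 0.233% of all positions.

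Over the lists together, 411 sharp positions (0.795%) were matched in all 7 others, against 0.696% of all positions, a share close to the background. In none of the 7 were 7190 matched, 13.9% against 7.87% of all positions. In all 3 other lists of the earlier stages 21.5% were matched against 19.4%, and 340 (0.657%) were sharp in all 3, against 0.0109% of all positions. The 411 had a median summit value of 1.79 times that of the list, and the 7190 without a match 0.828 times.

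Single positions show the range. The sharp position on chromosome 15 from 21586211 to 21586351 (mm9, as in the deposited list) had the lowest mean percentile over the 7 other lists, 0.0813. It was isolated, with gaps of 2390 bp upstream and 1570 bp downstream and 96 positions in its 100 kb window. Its fuzziness was 34.2 and 33.2 in spermatocytes of WT and H2A.L.2-less mice, 31.9 and 33.6 in round spermatids, 32.7 and 32.3 in condensing nucleosomes, and 29.6 and 29.7 in small structures. These were extreme values in each of the 8 lists. Its height over the list's median was 4.34 and 4.11 in spermatocytes, 5.55 and 6.04 in round spermatids, 8.64 and 9.42 in condensing nucleosomes, and 1.27 and 1.30 in small structures, so it stood highest, relative to its list, in condensing nucleosomes.

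The position on chromosome 5 from 70209871 to 70210011 came next, with a mean percentile of 0.0924. Its fuzziness, WT before H2A.L.2-less, was 30.5 and 34.2 in spermatocytes, 29.7 and 35.5 in round spermatids, 42.5 and 39.9 in condensing nucleosomes, and 27.7 and 28.0 in small structures. It was of modest height, 1.31 times the WT spermatocyte median. The position on chromosome 1 from 156949641 to 156949781 had a mean percentile of 0.122 and fuzziness scores from 28.9 in H2A.L.2-less small structures to 38.3 in H2A.L.2-less condensing nucleosomes. These last 2 and a position on chromosome 3 from 76976691 to 76976831, named after its values were seen, were the 3 that met the sharp rule in all 8 lists. The position on chromosome 15 was below the fuzziness threshold of each list. It was not among the 3 because the rule also leaves out the highest positions of each list.

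The 3 positions with the lowest fuzziness in WT spermatocytes were each matched in only some of the lists. They are no counterpart to the positions above, which were picked for low ranks in the other lists. On chromosome 14 from 52252311 to 52252451 the score was 27.5, and no summit lay within 40 bp in H2A.L.2-less spermatocytes, H2A.L.2-less round spermatids or WT condensing nucleosomes. Its partner had a score of 51.5 in WT round spermatids and of 34.7 in H2A.L.2-less condensing nucleosomes, the latter at the 0.00924 percentile. On chromosome 6 from 136280231 to 136280371 the score was also 27.5, with partners of 47.8 in H2A.L.2-less spermatocytes and 33.3 in WT round spermatids, the latter at the 0.0321 percentile, of 39.98 in H2A.L.2-less condensing nucleosomes at the 0.108 percentile, and none in H2A.L.2-less round spermatids. On chromosome 3 from 30692301 to 30692441 the score was 27.8, with partners in 6 lists and none in H2A.L.2-less spermatocytes. Its partners ranged from 33.2 in WT round spermatids (percentile 0.0300) and 37.8 in H2A.L.2-less round spermatids (0.267) to 58.9 in WT small structures (86.6).

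The 3 highest sharp positions all had a summit value of 1048 and were matched in all 7 lists. They lay on chromosome 1 from 128926551 to 128926691, on chromosome 3 from 64533051 to 64533191 and on chromosome 14 from 68851551 to 68851691. Their fuzziness in H2A.L.2-less spermatocytes was 41.7, 40.3 and 38.6, and their mean percentiles over the 7 lists were 11.8, 2.43 and 3.51. The first had partners at the 35.4 percentile in H2A.L.2-less condensing nucleosomes and at 23.1 in H2A.L.2-less small structures. In the WT lists of that stage its partners were at 6.08 and 12.5, in the same order. In the whole class of summit values from 328 upwards, 35.7% of sharp positions were matched in WT condensing nucleosomes, against 35.8% of all positions. In H2A.L.2-less condensing nucleosomes the shares were 35.1% and 36.8%, so sharp positions were not ahead in this class. The 3 highest without a match in any list had summit values of 416, 408 and 400 and lay on chromosome 5 from 136020851 to 136020991 and from 45911301 to 45911441, and on chromosome 3 from 96082241 to 96082381. At the last of these the nearest summit was 1000 bp away in H2A.L.2-less spermatocytes and 1350 bp away in H2A.L.2-less round spermatids, but 60 bp away in small structures of both genotypes. Genes and sequences were not placed at these sites, since no mm9 genome or annotation was used here.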

How the data were processed

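Protected positions of 8 MNase libraries were analysed, 1 library per stage, genotype and fragment class, grouped by the sample titles. The submitters' processing notes name Bowtie2 2.2.9, deepTools 2.2.4 and mm9. Settings of the position caller and duplicate filters are not given in the sources used here. Columns for a summit value and a fuzziness score are present per the file headers. Summit values, deposited as a coverage signal, are whole multiples of 4, with no visible normalization to depth, so heights were used only relative to the same list. The depth of single libraries is unknown. The deposited fuzziness score was used as given and as a percentile within its list. All positions were 140 bp wide, and 94.9% to 98.8% of summits lay on a 10 bp grid.

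Chromosomes 1 to 19 were used. Positions were matched within 40 bp to the nearest summit, and medians have order-statistic intervals. The single positions and windows named were those lowest in fuzziness, highest in summit value, matched in all 7 other lists with the lowest mean percentile, or matched in none, the windows with most sharp positions and the extreme autosomes. The sharp positions, measures and settings were chosen with earlier results of these data known. The share without a summit within 200 bp, the peaks of small structures, the reweighting to density and nearest summit and the removal of part of chromosome 13 were added after the values were seen. Python 3.11.15, numpy 2.4.6, pandas 2.3.3, scipy 1.17.1 and matplotlib 3.10.9 were used, and the functions were tested on simulated data.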

Additional observations from a re-analysis of the deposited data

Results flagged for a closer look

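The matched share of sharp minus that of all positions was -6.87 percentage points in WT round spermatids and 7.94 in H2A.L.2-less round spermatids. The 2 genotypes thus lay on opposite sides, and the difference between them was not tested, since each is 1 library. These values changed sign with the matching distance. Within 20 bp both differences were positive and within 73 bp both were negative, so the opposite signs belong to the 40 bp distance. The shares of sharp positions behind these values were close in the 2 genotypes with the full lists (39.8% for WT and 40.05% for H2A.L.2-less within 20 bp, 50.3% and 53.5% within 73 bp). All positions were matched more often in WT (38.2% and 29.0%, 71.0% and 55.8%). The closeness depended on the longer WT list. With equal numbers of positions, 31.9% of sharp positions were matched in WT and 42.6% in H2A.L.2-less round spermatids within 40 bp, and with the full lists the least dense of 5 classes of windows gave 42.2% and 53.4%.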

How the results depend on the processing

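Values are given for sharp positions, in the order H2A.L.2-less spermatocytes, WT and H2A.L.2-less round spermatids, WT and H2A.L.2-less condensing nucleosomes, WT and H2A.L.2-less small structures. Matched within 20 bp, the shares were 41.1%, 39.8%, 40.05%, 13.4%, 13.1%, 15.2% and 9.48%, and the first 2 then stood above all positions (36.1% and 38.2%), a reversal. Within 73 bp they were 51.1%, 50.3%, 53.5%, 24.9%, 24.5%, 28.9% and 19.96%, and the third turned below all positions (55.8%). The cause of these reversals was not tested. With the 0.5% quantile they were 47.4%, 45.5%, 49.8%, 19.6%, 18.6%, 21.3% and 13.9%, and with the 2% quantile 51.8% (above all positions, 51.5%), 51.3%, 51.0%, 20.6%, 20.3%, 25.8% and 16.9%. With equal numbers of positions in the other lists they were 39.3%, 31.9%, 42.6%, 19.95%, 18.9%, 13.5% and 13.7%, each on the same side of all positions as before. For summit values at or above the median they were 66.2% and 66.2% (above all positions, 61.7% and 64.5%), 61.9%, 25.5%, 24.4%, 29.5% and 19.6%.

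The median fuzziness percentiles were 4.14, 3.85, 8.29, 19.7, 18.3, 13.4 and 21.4 within 20 bp, and 5.15, 4.73, 10.3, 25.1, 24.6, 18.3 and 26.7 within 73 bp. They were 3.58, 3.33, 7.52, 20.04, 18.7, 13.6 and 22.1 with the 0.5% quantile, and 6.95, 6.39, 12.5, 25.1, 24.3, 17.1 and 24.3 with the 2% quantile. All of these were below the percentile of all positions. With the 0.5% quantile the median summit value was 0.948 times that of all positions, the gap 430 bp and the window density 182. With the 2% quantile the gap was 410 bp and the density 193. Gaps of any length had a median of 560 bp, windows of 1 Mb gave 193.4 positions per 100 kb, and the second-peak ratio was 2.95 for summit values at or above the median. In all, 25 of 100 values stayed within their interval, 69 moved outside it and 6 were reversed against all positions. Those that stayed include the removal of part of chromosome 13 for each of the 18 results, which took out few sharp positions. They also include the share in WT condensing nucleosomes with equal numbers, where that list was not shortened. Lists differ in calling floor, so a position missing from a list may be below it. No paired analysis was possible because each group had 1 library.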
